A study of Homo sapiens with 14 samples.

Results

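The 10 genes described here mark or maintain the epithelial state of luminal breast cells: the keratins KRT8, KRT18 and KRT19, the adhesion molecule CDH1, the claudins CLDN3, CLDN4 and CLDN7, and the transcription factors OVOL2, GRHL2 and ELF3. They were chosen by name, with earlier results of these data known. Every probe set annotated to them on the Affymetrix HG-U133 Plus 2.0 array was used. This gave 17 of 54613 probe sets, each annotated to 1 gene, for 10 of 19775 genes. After SRC-1 knockdown in untreated cells CDH1 and OVOL2 were lower and KRT8 and CLDN4 higher, while none of the 17 probe sets passed the test for tamoxifen. The KRT8 and CLDN4 calls were lost without some single arrays and when the replicate number entered the model. OVOL2 and CLDN4 passed on their brighter probe set only.

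RNA came from LY2 cells, a derivative of the estrogen-dependent MCF-7 cells that is labelled as tamoxifen resistant. SRC1 siRNA with tamoxifen had 2 arrays (replicates 1 and 3), SRC1 siRNA untreated 4, control siRNA with tamoxifen 4 and control siRNA untreated 4. SRC1 siRNA targets SRC-1, a coactivator of nuclear receptors encoded by NCOA1, and the control is a scrambled siRNA, each at 40 nM. All groups had been grown in medium stripped of steroids with 10 nM 4-hydroxytamoxifen, the active metabolite of tamoxifen, and then without it for 72 hours. From 24 hours after transfection, cells received 100 nM 4-hydroxytamoxifen or, in the untreated groups, its ethanol vehicle for 2 hours. The knockdown rests on 1 siRNA product in 1 cell line. The labels call the replicates biological and do not say whether they were separate cultures, so p-values measure the spread between these arrays.

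Simple epithelia build their intermediate filaments from pairs of keratins, of which KRT8 with KRT18 is the main pair and KRT19 a further acidic partner. CDH1 encodes E-cadherin, which joins neighbouring cells at adherens junctions, and claudins form the strands that seal tight junctions. OVOL2 and GRHL2 keep epithelial genes active and oppose the transition to a mesenchymal state, and ELF3 is an ETS factor largely confined to epithelia. Luminal breast cancers usually express these genes, and loss of E-cadherin is a hallmark of the lobular subtype and of mesenchymal transition.

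Values are deposited log2 signals. A change is the difference of 2 group means on that scale, with its standard error (SE) or 95% interval, and it passed where the Benjamini-Hochberg adjusted p of limma over all 54613 probe sets was under 0.05. Median signals of the arrays lay between 3.44 and 3.51. NCOA1, averaged over its 4 probe sets, lay between 7.27 and 8.01 on untreated SRC1-siRNA arrays, against 8.77 to 9.27 on untreated control-siRNA arrays. With tamoxifen it was at 7.91 and 7.56 on SRC1-siRNA arrays, against 8.86 to 9.27 on control-siRNA arrays, and all 4 probe sets passed in both treatments. All 8 markers of luminal breast epithelium, among them ESR1, GATA3 and EPCAM, were above the median of all probe sets (3.47) in every group. Of 5 measured basal or myoepithelial markers 3 (ACTA2, MYH11 and OXTR) were above it in every group, and KRT5 and KRT14 were below it in every group. Of 8 fibroblast markers 1, COL1A1, was above it and 7 were below it in every group. The mean signal of the 6 measured immune markers was 2.31 to 2.39 on untreated SRC1-siRNA arrays and 2.18 to 2.24 on untreated control-siRNA arrays, and that of the 6 endothelial markers 2.50 to 2.63 on untreated SRC1-siRNA arrays and 2.37 to 2.44 on untreated control-siRNA arrays. IFNB1, interferon beta, lay between 8.84 and 11.11 on untreated SRC1-siRNA arrays, against 4.66 to 7.08 on untreated control-siRNA arrays. IFIT1, an interferon-induced antiviral protein, was at 15.53 on the SRC1-siRNA untreated replicate 4 array and at 9.76 on the control-siRNA untreated replicate 4 array, while the other 6 untreated arrays lay between 11.99 and 12.49. The part of these differences in the results was not tested.

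The first comparison asked what knockdown of SRC-1 changed in untreated cells. CDH1 fell on both of its probe sets and OVOL2 on the brighter of its 2, while KRT8 and the brighter CLDN4 probe set rose. KRT18, KRT19, CLDN3, CLDN7, GRHL2 and ELF3 did not pass on any probe set. In all, 2 of the 17 probe sets rose and 3 fell. Over the whole array 10.4% of probe sets passed (4.99% higher, 5.36% lower), and 16.1% of those whose mean signal exceeded the overall median of 3.47, as was so for 16 of the 17. The median change was 0.0028 over the 17 probe sets and -0.0038 over all.

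**Figure D1:**
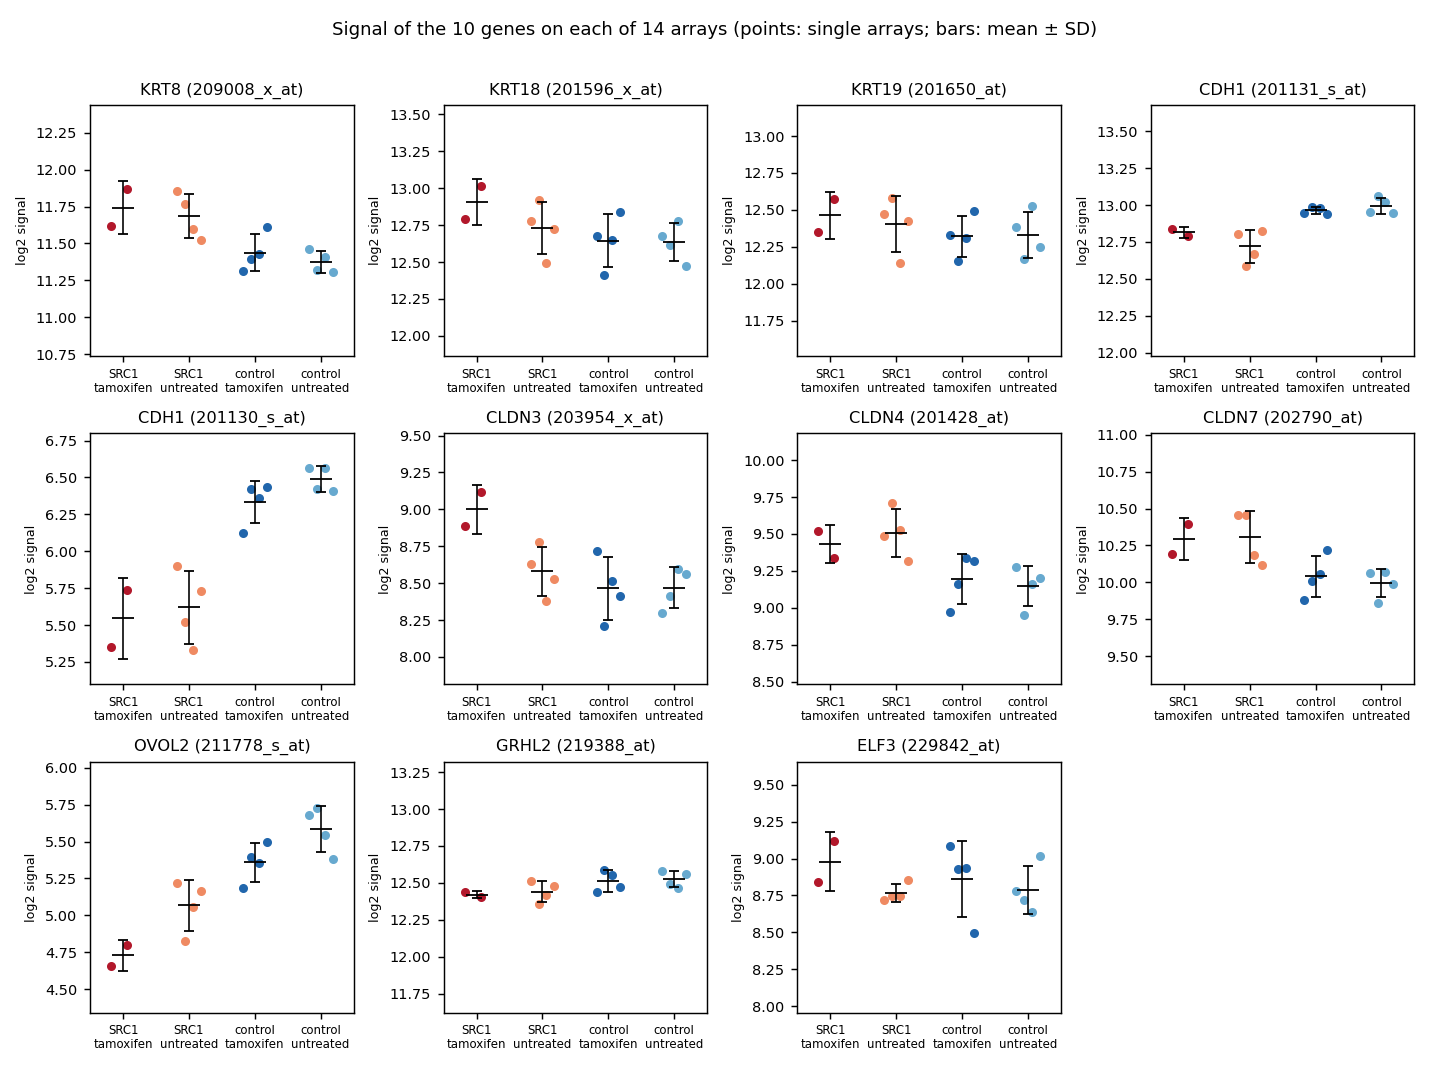
Log2 signal (y axis) on each of the 14 arrays for the brightest probe set of each gene and for the dimmer CDH1 probe set, in the 4 groups (x axis). Points are arrays, bars are the mean ± SD of 2 or 4 arrays, and all panels span the same range of log2 units. In both CDH1 panels and for OVOL2 each SRC1-siRNA group lies below the control-siRNA group of the same treatment without overlap.

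Of the keratins, KRT8 (209008_x_at) was at 11.86, 11.77, 11.60 and 11.53 in SRC1-siRNA cells for replicates 1 to 4, against 11.46, 11.32, 11.40 and 11.30 in control-siRNA cells. All 4 SRC1-siRNA arrays lay above all 4 control-siRNA arrays. The change was 0.31 ± 0.087 (SE; limma adjusted p = 0.0351), a signal 24.3% higher. KRT18 (201596_x_at), the filament partner of KRT8, was at 12.78, 12.92, 12.49 and 12.73 in SRC1-siRNA cells, against 12.68, 12.61, 12.78 and 12.47 in control-siRNA cells. These groups overlapped, and the difference was 0.095 with a 95% interval from -0.13 to 0.32. KRT19 differed by 0.070 (95% interval -0.16 to 0.30) on its brighter probe set 201650_at and by 0.0028 (-0.47 to 0.48) on 228491_at. The annotated spans of KRT8 (chr12:52897191-52949860) and KRT18 (chr12:52948855-52952906, both GRCh38.p14) overlap at 1 end on chromosome 12. The suffix _x_at marks probe sets with probes that can also match other transcripts, and both genes have processed pseudogenes, so these signals may hold more than 1 transcript.

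CDH1 (chr16:68737292-68835537, GRCh38.p14) had the largest change of the 17 probe sets. Its dimmer probe set 201130_s_at was at 5.90, 5.52, 5.33 and 5.73 in SRC1-siRNA cells for replicates 1 to 4, against 6.56, 6.42, 6.57 and 6.41 in control-siRNA cells. The highest SRC1-siRNA array was below the lowest control-siRNA array. The change was -0.87 ± 0.12 (SE; limma adjusted p = 0.00102), and the signal fell by 45.2%. The brighter probe set 201131_s_at was at 12.80, 12.59, 12.67 and 12.83 in SRC1-siRNA cells, against 12.95, 13.06, 13.02 and 12.94 in control-siRNA cells. It too showed no overlap, with a change of -0.27 ± 0.056 (SE; limma adjusted p = 0.00864), and the signal fell by 17.2%. The size thus depended on the probe set, with a 95% interval of -1.13 to -0.61 on the dimmer one and -0.39 to -0.15 on the brighter one. In RNA of whole cultures, fewer cells with a transcript and less of it per cell cannot be told apart.

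The claudins were higher or did not pass. CLDN4 (201428_at) was at 9.48, 9.71, 9.53 and 9.31 in SRC1-siRNA cells for replicates 1 to 4, against 9.27, 8.95, 9.16 and 9.20 in control-siRNA cells. The groups did not overlap, and the change was 0.36 ± 0.10 (SE; limma adjusted p = 0.0374), a signal 28.5% higher. Its other probe set, 1569421_at, stayed between 1.95 and 2.26 on all 14 arrays, below the median of all probe sets. CLDN7 (202790_at) was at 10.46, 10.46, 10.19 and 10.12 in SRC1-siRNA cells, against 10.06, 9.86, 10.07 and 9.99 in control-siRNA cells. These groups did not overlap either, but the difference of 0.31 ± 0.094 (SE; limma adjusted p = 0.0518) did not pass. CLDN3 differed by 0.11 (95% interval -0.13 to 0.35) on its brighter probe set 203954_x_at and by -0.052 (-0.39 to 0.28) on 203953_s_at. CLDN3 (chr7:73768997-73770270) and CLDN4 (chr7:73830996-73832690, both GRCh38.p14) are near each other on chromosome 7, and the difference between their changes was not tested.

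Promoters from RefSeq (GRCh38.p14, 250 bases before to 50 after the start) were matched for 5 of the 10 genes, KRT8, CLDN3, CLDN4, CLDN7 and ELF3. Only 1 window per gene was used, and other annotated starts were not searched. The KRT8 window (chr12:52926420-52926719, - strand) lies inside the gene span given above, not at its end. The claudin promoters are shown as those of 1 family. Differences between the claudins in their knockdown changes, and any part of the matches in them, were not tested. Capitals mark GGTCA on either strand, the core of the estrogen response element.
CLDN4 (chr7:73830746-73831045, + strand): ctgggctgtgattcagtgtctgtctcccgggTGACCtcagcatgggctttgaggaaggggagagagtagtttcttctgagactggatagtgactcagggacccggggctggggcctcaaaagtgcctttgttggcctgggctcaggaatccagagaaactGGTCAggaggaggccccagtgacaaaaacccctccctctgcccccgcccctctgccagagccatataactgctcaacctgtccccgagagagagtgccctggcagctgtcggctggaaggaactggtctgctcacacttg
CLDN7 (chr17:7263164-7263463, - strand): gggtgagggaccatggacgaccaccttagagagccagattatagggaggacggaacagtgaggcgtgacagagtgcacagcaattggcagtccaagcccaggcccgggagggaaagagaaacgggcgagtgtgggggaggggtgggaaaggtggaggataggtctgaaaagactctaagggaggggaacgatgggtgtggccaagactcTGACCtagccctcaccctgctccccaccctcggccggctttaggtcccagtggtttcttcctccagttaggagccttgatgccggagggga
CLDN3 (chr7:73770221-73770520, - strand): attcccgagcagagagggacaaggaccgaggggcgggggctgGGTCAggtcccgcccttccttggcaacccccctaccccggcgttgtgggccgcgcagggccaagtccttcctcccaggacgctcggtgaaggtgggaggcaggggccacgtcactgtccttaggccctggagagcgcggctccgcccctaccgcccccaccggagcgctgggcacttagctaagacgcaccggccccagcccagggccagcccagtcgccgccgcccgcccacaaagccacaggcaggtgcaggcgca
CLDN4 holds 2 such matches, at positions -219 and -90 from the start of the gene, CLDN7 holds 1 at -41 and CLDN3 1 at -208. GGTCA was present in 4 of the 5 promoters (KRT8 and the claudins) and in 37.7% of all 27305 promoters of that length. The ETS core GGAAG was in the same 4 (71.9% of all), and CAGGTG, the E-box of ZEB and SNAI repressors, in CLDN3 and ELF3 (20.6% of all). The interferon-stimulated response element (TTTC, any 2 bases, TTTC) was in CLDN7 (3.65% of all). AACCGG of grainyhead-like factors (7.23% of all), CCGTTA of OVO factors (3.15%) and the STAT site TTCNNNGAA (7.88%) had no match in these 5 windows. Both strands were searched, no match overlapped that of another motif, and a match describes letters, not a bound site.

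Among the transcription factors OVOL2 fell. Its brighter probe set 211778_s_at was at 5.22, 4.83, 5.06 and 5.16 in SRC1-siRNA cells for replicates 1 to 4, against 5.68, 5.73, 5.55 and 5.38 in control-siRNA cells. Every SRC1-siRNA array lay below every control-siRNA array. The change was -0.52 ± 0.099 (SE; limma adjusted p = 0.00564), and the signal fell by 30.1%. The dimmer 206048_at differed by -0.28 ± 0.11 (SE; limma adjusted p = 0.131) and did not pass. GRHL2 (219388_at), a direct activator of junction genes, was at 12.51, 12.35, 12.42 and 12.48 in SRC1-siRNA cells, against 12.58, 12.49, 12.46 and 12.56 in control-siRNA cells. These groups overlapped, and the 95% interval of the difference was -0.20 to 0.032. The 3 ELF3 probe sets differed by -0.025 (229842_at, the brightest), 0.25 (210827_s_at) and 0.0046 (201510_at), and none passed. For 210827_s_at the limma adjusted p was 0.167.

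**Figure D2:**
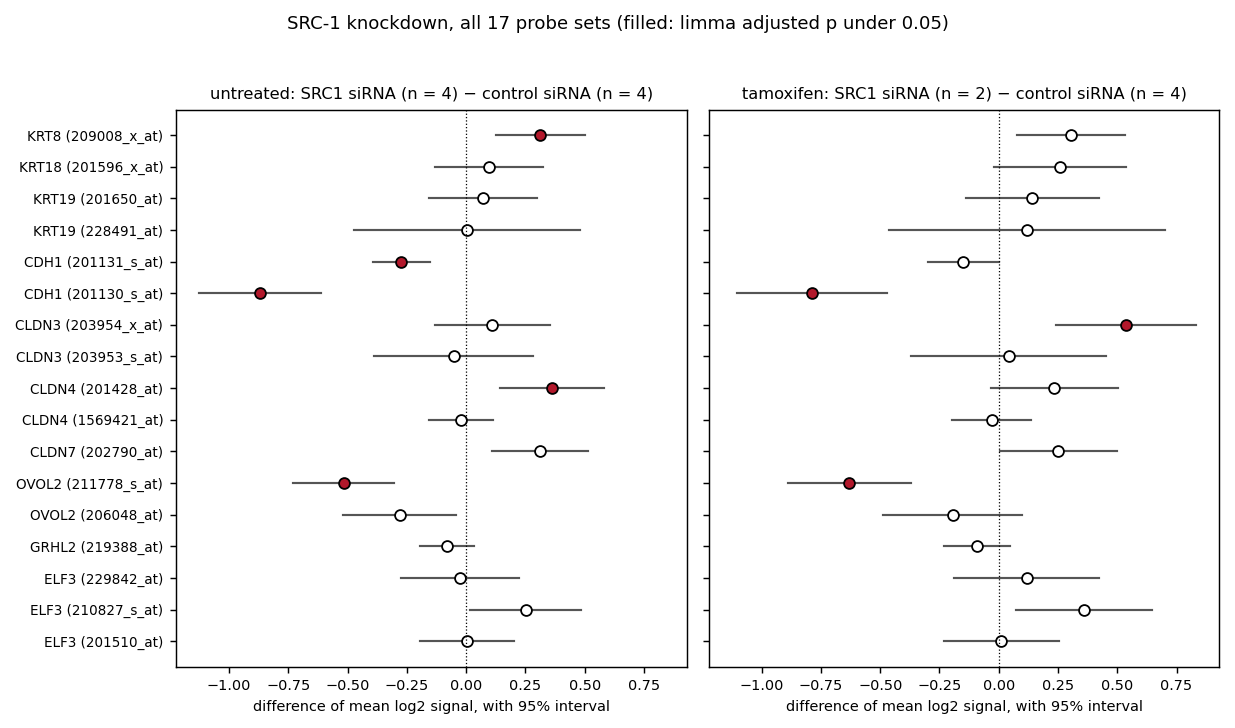
Difference of mean log2 signal (x axis) between SRC1-siRNA and control-siRNA cells for all 17 probe sets (y axis), in untreated cells on the left and tamoxifen-treated cells on the right. Lines are 95% intervals and filled points passed. On the left KRT8 and CLDN4 are filled to the right of 0 and CDH1 and OVOL2 to its left, and on the right CLDN3 is filled to the right of 0 and CDH1 and OVOL2 to its left.

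Between untreated arrays of the same replicate number, 7 of the 17 probe sets differed in 1 direction at all 4 numbers, although the numbers were not shown to pair the arrays. The share over all probe sets was not computed, and the 7 include CLDN7 and GRHL2, which did not pass. CDH1 on 201130_s_at differed by -0.66, -0.90, -1.24 and -0.68 for replicates 1 to 4. OVOL2 on 211778_s_at differed by -0.46, -0.90, -0.49 and -0.21. KRT8 differed by 0.39, 0.45, 0.19 and 0.22. Replicate 2 gave the largest difference for OVOL2 and KRT8 and replicate 3 for CDH1 on 201130_s_at. On 201131_s_at CDH1 differed by -0.15, -0.47, -0.35 and -0.12, with replicate 2 the largest. CLDN4 differed by 0.21, 0.76, 0.37 and 0.11, and CLDN7 by 0.40, 0.60, 0.12 and 0.13, again with replicate 2 the largest. KRT18, KRT19 and CLDN3 were not of 1 direction. The SRC1-siRNA untreated replicate 3 array was the lowest of its group on all 5 probe sets of these 3 genes and replicate 2 the highest on all 5, and the control-siRNA tamoxifen replicate 2 array was the lowest of its group on all 5.

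**Figure D3:**
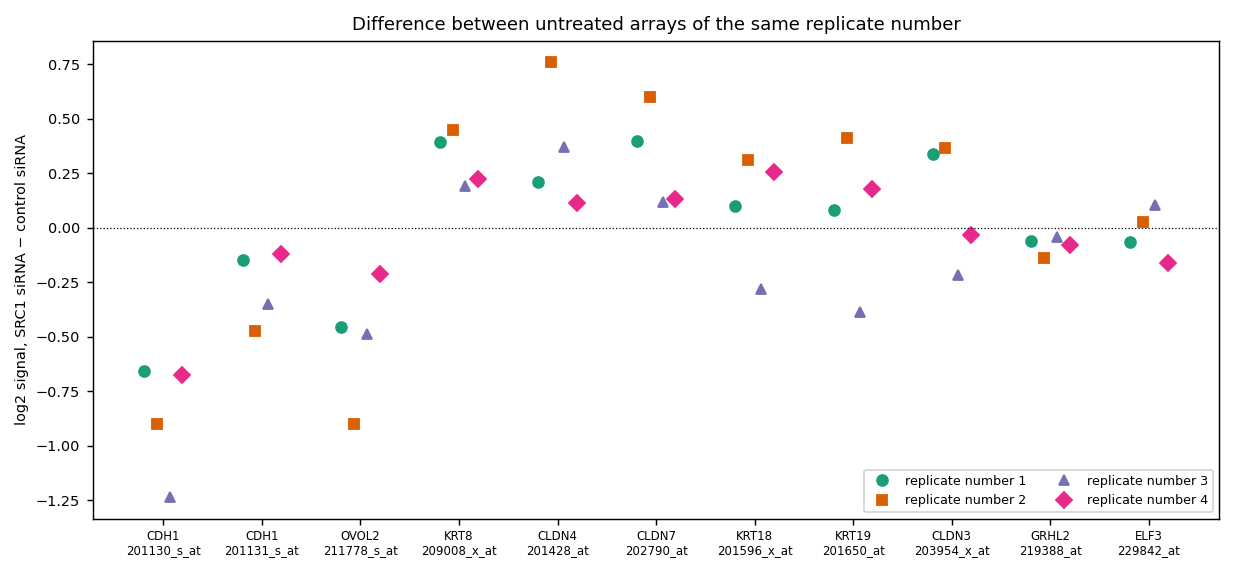
Difference in log2 signal between untreated SRC1-siRNA and control-siRNA arrays of the same replicate number (y axis) for 11 probe sets (x axis), with 1 marker for each of the 4 numbers. CDH1, OVOL2 and GRHL2 lie below 0 and KRT8, CLDN4 and CLDN7 above 0 at every number, while KRT18 and KRT19 lie below 0 at replicate 3 only.

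Untreated groups did not overlap for 6 of the 17 probe sets, against 16.2% of all probe sets. The KRT8 and CLDN4 calls were both lost, leaving 3, without SRC1-siRNA untreated replicate 1 or 2 or control-siRNA untreated replicate 2, 3 or 4, and the CLDN4 call also without SRC1-siRNA untreated replicate 3. Without the arrays of replicate 4, which stood apart in IFIT1, 7 of the 17 probe sets passed, 4 higher and 3 lower, where 8.14% of all probe sets passed (3.8% higher, 4.34% lower).

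The second comparison set the same knockdown in tamoxifen-treated cells, with 2 arrays against 4. CDH1 and OVOL2 fell on 1 probe set each, and CLDN3 rose on 1. Of the 17 probe sets 1 rose and 2 fell, where 13.5% of all probe sets passed (5.76% higher, 7.7% lower) and 19.4% of those above the median. CDH1 on 201130_s_at was at 5.35 and 5.74 in SRC1-siRNA cells (replicates 1 and 3), against 6.12, 6.42, 6.36 and 6.43 in control-siRNA cells. The groups did not overlap, and the change was -0.79 ± 0.15 (SE; limma adjusted p = 0.00494). On 201131_s_at CDH1 was at 12.84 and 12.79 in SRC1-siRNA cells, against 12.95, 12.99, 12.98 and 12.94 in control-siRNA cells. These groups did not overlap, but the difference of -0.15 ± 0.069 (SE; limma adjusted p = 0.170) did not pass. OVOL2 on 211778_s_at was at 4.66 and 4.80 in SRC1-siRNA cells, against 5.19, 5.40, 5.35 and 5.50 in control-siRNA cells. Its change was -0.63 ± 0.12 (SE; limma adjusted p = 0.00589), and the SRC1-siRNA values were the lowest of all 14 arrays on that probe set.

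CLDN3 on 203954_x_at was at 8.88 and 9.12 in tamoxifen-treated SRC1-siRNA cells, against 8.72, 8.21, 8.51 and 8.41 in tamoxifen-treated control-siRNA cells. The groups did not overlap, and the change was 0.54 ± 0.14 (SE; limma adjusted p = 0.0229). The other CLDN3 probe set, 203953_s_at, was at 5.81 and 6.31 in SRC1-siRNA cells, against 6.10, 5.61, 6.15 and 6.21 in control-siRNA cells. These groups overlapped, and the 95% interval of the difference was -0.37 to 0.45, so the CLDN3 call rests on 1 of its 2 probe sets. The passing one, 203954_x_at, carries the suffix _x_at, so its signal may also hold other transcripts. KRT8 differed by 0.30 ± 0.11 (SE; limma adjusted p = 0.0733), CLDN4 by 0.23 ± 0.12 (SE; limma adjusted p = 0.229) and CLDN7 by 0.25 ± 0.11 (SE; limma adjusted p = 0.165), and none of them passed. The keratins KRT18 and KRT19 (201650_at) differed by 0.26 (95% interval -0.020 to 0.54) and 0.14 (-0.14 to 0.42). GRHL2 differed by -0.092 (95% interval -0.23 to 0.047), and ELF3 on 210827_s_at by 0.36 ± 0.13 (SE; limma adjusted p = 0.0904).

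Groups did not overlap for 7 of the 17 probe sets, against 36% of all probe sets with 2 arrays against 4. No member call held without SRC1-siRNA tamoxifen replicate 1 (CDH1 on 201130_s_at then had a limma adjusted p of 0.0856), and the CLDN3 call was also lost without SRC1-siRNA tamoxifen replicate 3. In either fit SRC1 siRNA with tamoxifen is 1 array, which is assumed to vary like the arrays of the other groups.

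The third and the fourth comparison asked what 2 hours of tamoxifen changed under each siRNA. None of the 17 probe sets passed in limma in SRC1-siRNA cells, where 1.51% of all probe sets did, and 2 had an unadjusted p under 0.05. None passed in limma in control-siRNA cells, where 0.163% of all did, and 1 had an unadjusted p under 0.05. OVOL2 on 211778_s_at was at 4.66 and 4.80 with tamoxifen in SRC1-siRNA cells, against 5.22, 4.83, 5.06 and 5.16 untreated. The groups did not overlap, and the difference was -0.34 ± 0.12 (SE; limma adjusted p = 0.174). In control-siRNA cells it was at 5.19, 5.40, 5.35 and 5.50 with tamoxifen, against 5.68, 5.73, 5.55 and 5.38 untreated. These groups overlapped, with a difference of -0.22 ± 0.099 (SE; limma adjusted p = 0.293). Its group means were 4.73 and 5.07 in SRC1-siRNA cells with and without tamoxifen, against 5.36 and 5.58 in control-siRNA cells with and without tamoxifen. The tamoxifen and knockdown comparisons share these arrays.

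CLDN3 on 203954_x_at was at 8.88 and 9.12 with tamoxifen in SRC1-siRNA cells, against 8.63, 8.78, 8.38 and 8.53 untreated. The groups did not overlap, and the difference was 0.42 ± 0.14 (SE; limma adjusted p = 0.138). In control-siRNA cells the difference was -0.0034 ± 0.11 (SE; limma adjusted p = 0.994). Groups did not overlap for 3 of the 17 probe sets in SRC1-siRNA cells (24.4% of all probe sets) and for 0 in control-siRNA cells (8.86%). For the brighter CDH1 probe set the 95% interval of the tamoxifen difference was -0.056 to 0.24 in SRC1-siRNA cells and -0.15 to 0.091 in control-siRNA cells. For KRT8 it was -0.17 to 0.28 in SRC1-siRNA cells and -0.12 to 0.25 in control-siRNA cells, and for GRHL2 -0.16 to 0.12 in SRC1-siRNA cells and -0.12 to 0.10 in control-siRNA cells.

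**Figure D4:**
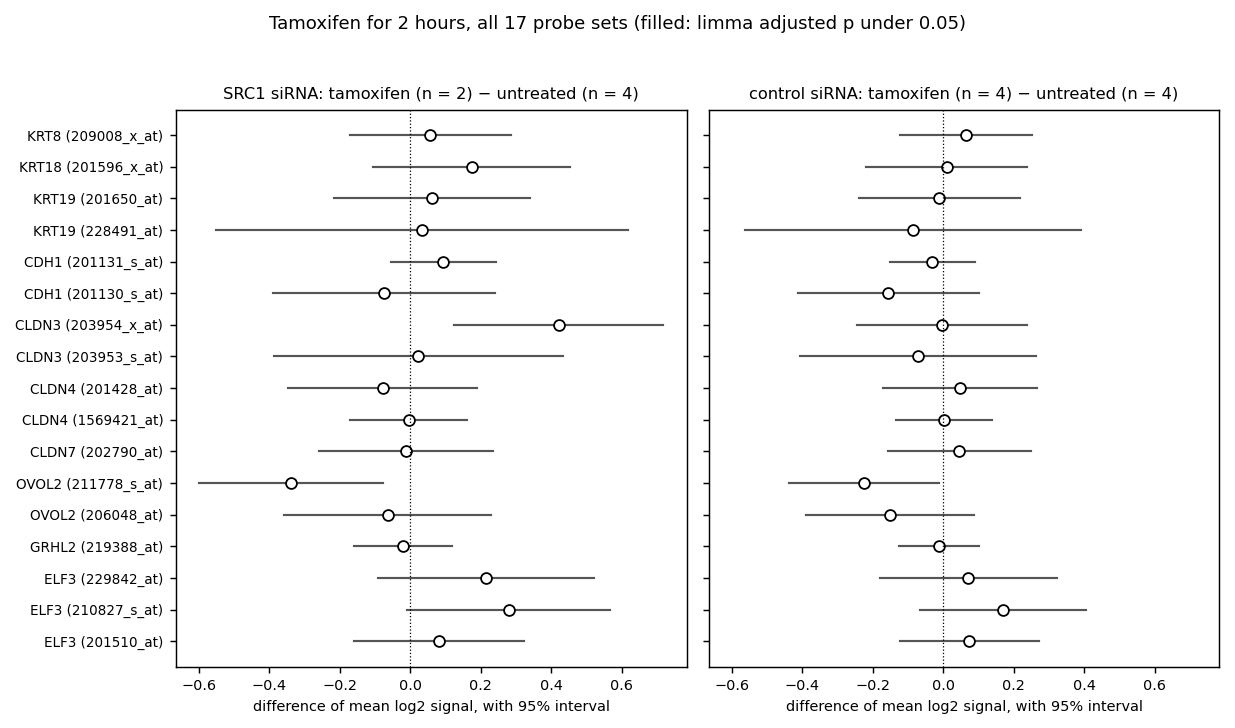
Difference of mean log2 signal (x axis) between tamoxifen-treated and untreated cells for all 17 probe sets (y axis), with SRC1 siRNA on the left and control siRNA on the right. Lines are 95% intervals and no point is filled, since none passed. The intervals of CLDN3 (203954_x_at) and OVOL2 (211778_s_at) leave out 0 on the left, and that of OVOL2 (211778_s_at) on the right.

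The interaction tested whether the tamoxifen change differed between the siRNAs. None of the 17 probe sets passed in limma, where 0.28% of all probe sets did, and 1 had an unadjusted p under 0.05. It was CLDN3 on 203954_x_at, whose tamoxifen difference was larger in SRC1-siRNA cells by 0.42 ± 0.18 (SE; limma adjusted p = 0.248). The interaction was 0.081 (95% interval -0.32 to 0.49) for CDH1 on 201130_s_at and -0.11 (-0.45 to 0.22) for OVOL2 on 211778_s_at, so their knockdown changes were not shown to differ between treatments.

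Of 120 further epithelial and mesenchymal genes in 10 lists, 109 were measured, each by its brightest probe set. After knockdown in untreated cells 9 rose and 3 fell, which is 11.01% of them, against 11.9% of all genes taken in the same way (5.97% higher, 5.98% lower). Of 12 other measured genes of adherens junctions 4 rose and 0 fell, with a list median of 0.026 against -0.0036 over all genes. They were JUP, or plakoglobin, which links cadherins to the cytoskeleton (0.31 ± 0.056 SE, limma adjusted p = 0.00442), the nectins NECTIN4 (0.49) and NECTIN2 (0.30), adhesion receptors of the same junction, and PLEKHA7 (0.45), which tethers it to microtubules. Of 14 other tight junction genes CLDN1 rose (0.99 ± 0.13 SE, limma adjusted p = 8.61e-04), with means of 7.27 in SRC1-siRNA and 6.29 in control-siRNA cells, and CLDN9 (-0.45) fell (median 0.066). Of 11 polarity genes CRB3, an apical determinant, rose (0.30; median -0.088). None of 11 desmosome genes passed in limma, while 4 had an unadjusted p under 0.05 (median -0.11), led by PKP4 (-0.15) and PKP2 (-0.36).

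Of 13 other epithelial identity factors GRHL3, a relative of GRHL2, rose (0.30) at means of 3.30 in SRC1-siRNA and 2.99 in control-siRNA cells, below the median of all probe sets, and TRPS1, a GATA-type repressor, fell (-0.23; list median -0.0070). Of 10 repressors of epithelial genes 2, ZEB2 and TCF4, were above the median of all probe sets and did not pass, and TWIST2, below it, fell (-0.24; list median -0.0024). ZEB1, a repressor of CDH1, had means of 2.28 in SRC1-siRNA and 2.15 in control-siRNA cells and did not pass. Of 13 mesenchymal genes FN1, fibronectin, rose (0.92 ± 0.15 SE, limma adjusted p = 0.00278; list median 0.0020). None of 6 measured genes of the list of other simple and ductal keratins passed in limma (median -0.10). Of these, 2 had an unadjusted p under 0.05, KRT13 (-0.48) and the dim KRT23 (-0.14). Of 4 measured genes of the list of basal keratins and TP63, the dim KRT16 rose (0.45; median 0.17). None of 15 epithelial surface genes passed in limma, while 4 had an unadjusted p under 0.05, led by the membrane protease ST14 (0.46) and CDS1 (0.17), with a median of 0.047.

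**Figure D5:**
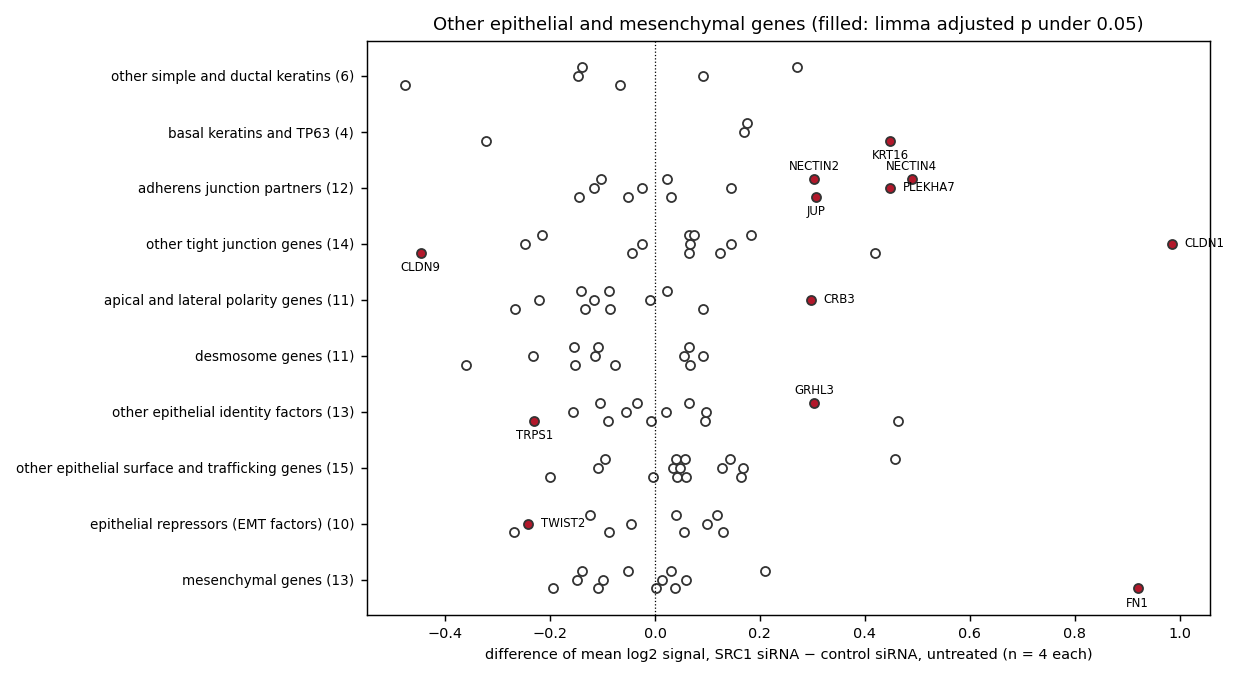
Difference of mean log2 signal between untreated SRC1-siRNA and control-siRNA cells (x axis) for the brightest probe set of each measured gene, by list (y axis, with the number measured). Filled, named points passed. CLDN1 (0.99) and FN1 (0.92) lie farthest to the right of the filled points and CLDN9 (-0.45) farthest to the left.

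With tamoxifen present 11 of the 109 genes rose and 6 fell after knockdown (15.6%, against 15.2% of all genes, 6.49% higher and 8.71% lower). CLDN1 (0.77), NECTIN2 (0.45), NECTIN4 (0.29), PLEKHA7 (0.53), GRHL3 (0.36) and FN1 (0.90) passed in both treatments. The desmosome genes were divided: PPL (0.31) and EVPL (0.55), which anchor keratins, and the dim DSC3 (0.22) rose, and the desmosomal cadherin DSG2 (-0.53) and the plaque protein PKP2 (-0.66) fell. KRT7 (0.58), a ductal keratin, and the mucin MUC1 (0.38) rose. KRT13 (-0.88), CLDN2 (-0.47), LIMA1 (-0.24), which links the cadherin complex to actin, and the polarity gene LIN7C (-0.35) fell. These knockdown calls with tamoxifen rest on 2 SRC1-siRNA arrays. With the replicate number as a term, 1 gene each passed among other simple and ductal keratins, other tight junction genes and mesenchymal genes. In the remaining lists 0 passed in that fit. For tamoxifen under either siRNA and for the interaction 0 of the 109 genes passed in limma, where 0.819% of all genes did in SRC1-siRNA cells, 0.248% in control-siRNA cells and 0.172% for the interaction. At an unadjusted p under 0.05 the counts were 10 in SRC1-siRNA cells, 14 in control-siRNA cells and 14 for the interaction.

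For each member that passed, the genes with the most similar signal over the 14 arrays were taken by Pearson correlation among 12263 genes above the median of all probe sets. For CDH1 on its brighter probe set they were ENTPD5 (r = 0.96), SLC25A3 (0.96) and GPR180 (0.96). OVOL2 was closest to AK9 (0.95), CDV3 (0.95) and PRORP (0.94). KRT8 was closest to CERS5 (0.97), its fellow member CLDN7 (0.97) and MCL1 (0.95). CLDN4 was closest to BRWD1 (0.94), MEG3 (0.92) and AQP3 (0.92), and CLDN3 to GNPTG (0.94), MRPS22 (0.93) and PRKCSH (0.93). These values describe arrays that share their siRNA groups and normalization, and the highest of many correlations are high by selection.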

How the data were processed

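RNA of 14 LY2 samples was amplified with the NuGEN Ovation system and measured on Affymetrix arrays, per the labels' protocols. The deposited values, made by the authors, are log2 signals, 1 per probe set and array. The base of the logarithm was inferred from their range. The submitters' processing notes name R 2.9.2, and the background correction, normalization and summary were not given in the sources used here. Of 54675 probe sets, 62 array controls were left out. By the platform annotation 41091 had 1 gene symbol, 1801 several and 11721 none.

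Groups and replicate numbers came from the sample titles. Means of 4 groups were fitted over all 14 arrays with limma 3.58.1 (statmod 1.5.0, R 4.3.3), leaving 10 residual degrees of freedom. Tests of 5 contrasts were two-sided and adjusted over 54613 probe sets, with no filter on low signals, and the code was tested on simulated data. The number of arrays limits the precision.

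The 10 genes, the lists and the tests were chosen with earlier results of these data known. Named are all member probe sets, NCOA1, and of each list up to 4 passing genes a comparison by smallest p, and where none passed in untreated knockdown up to 2 as values. ZEB1, ZEB2, TCF4, EVPL with tamoxifen, and the account of KRT18, KRT19 and CLDN3 by array were chosen after their values were seen, as was following the dimmer CDH1 probe set through the alternatives. The 3 most correlated genes are given for each member that passed. As alternatives, dim probe sets were removed, arrays were quantile normalized or centred on their median, the replicate number entered the model, the fit was limited to the groups compared, eBayes was run with trend and robust settings, arrays were weighted, probe sets of a gene were averaged, and each array, and all arrays of replicate 4, were left out.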

Additional observations from a re-analysis of the deposited data

Results flagged for a closer look

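Of 54 groups of 4 arrays checked for a single array far from the others, 1 was found, and chance gives about 1 in 20. The dimmer CLDN4 probe set 1569421_at was at 1.95 on the SRC1-siRNA untreated replicate 1 array, and the nearest other array of the group was at 2.07. All its values lie below the median of all probe sets.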

How the results depend on the processing

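Over 1229 recomputed member changes, 1194 kept their side of the threshold, 24 no longer passed and 11 newly passed. None that passed in either setting changed sign, while 65 that passed in neither did. These changes cover the brightest probe set of each gene and the dimmer CDH1 one, and most had not passed at first. Of the 24 losses, 8 were of CLDN4 and 6 of KRT8, both untreated, and 6 of CLDN3 with tamoxifen. After knockdown in untreated cells CDH1 on 201130_s_at passed under all 22 alternatives (-0.96 to -0.77) and OVOL2 under all 23 of its own (-0.62 to -0.40, -0.40 for the mean of its probe sets). CDH1 on 201131_s_at was lost only with the replicate number as a term. CLDN4 was also lost by the mean of its probe sets. CLDN7 newly passed under 7 alternatives, among them trend and robust eBayes, array weights and leaving out replicate 4. CLDN3 with tamoxifen was lost under 6, and KRT8 with tamoxifen newly passed under 3. The cause of these shifts was not tested.

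Leaving out single arrays gave 3 to 6 passing member probe sets for knockdown untreated, 0 to 4 for knockdown with tamoxifen and 0 for tamoxifen under either siRNA and the interaction. Over all probe sets the counts were 3626 to 5750 for knockdown untreated (5653 with all arrays), 1390 to 7215 with tamoxifen (7350), 3 to 879 for tamoxifen in SRC1-siRNA cells (824), 1 to 68 in control-siRNA cells (89) and 7 to 346 for the interaction (153). The 1390, 3 and 7 came without SRC1-siRNA tamoxifen replicate 1, and 4190 passed for knockdown with tamoxifen without replicate 3 of that group. These fits leave that group with 1 array, so they take its spread from the other groups. Knockdown untreated gave 3626 and 3649 without SRC1-siRNA untreated replicates 1 and 2, and tamoxifen in SRC1-siRNA cells 437, 435, 365 and 352 without SRC1-siRNA untreated replicates 1 to 4. Tamoxifen in control-siRNA cells and the interaction moved by over 1.5 times without each of 11 and 12 of the 14 arrays.

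With the replicate number as a block, counts over all probe sets were 2154 and 1224 for knockdown untreated and with tamoxifen, 0 and 1 for tamoxifen in SRC1-siRNA and control-siRNA cells and 0 for the interaction, and member counts were 2 and 1 for the knockdowns. In untreated cells CDH1 on 201130_s_at (limma adjusted p = 0.00983) and OVOL2 on 211778_s_at (0.0338) passed in that fit, and CDH1 on 201131_s_at (0.0588), KRT8 (0.122) and CLDN4 (0.123) did not. With tamoxifen CDH1 on 201130_s_at (0.0482) passed, and OVOL2 (0.0537) and CLDN3 (0.126) did not. The numbers were not shown to pair the arrays: in 18 same-number pairs the deviations from group means correlated between -0.58 and -0.04, and 0 of 14 arrays was closest to its own number. For tamoxifen in SRC1-siRNA cells, 246 probe sets passed without dim probe sets, 109 with only the arrays compared, 371 with array weights and 159 without replicate 4. In control-siRNA cells 35 passed with median centring, 2 with only the arrays compared, 232 with array weights and 24 without replicate 4. For the interaction 23 passed without dim probe sets and 0 without replicate 4, and 4025 passed for knockdown with tamoxifen with only the arrays compared. Median centring made 2653 of 8019 calls for knockdown with tamoxifen higher (3147 of 7350 as deposited), 413 of 909 for tamoxifen in SRC1-siRNA cells (494 of 824) and 63 of 174 for the interaction (73 of 153). Member counts did not move with quantile normalization or median centring. Signals near the floor of the array, as for CLDN4 on 1569421_at, cannot show a fall.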
